A study of Mus musculus with 2 samples.

Results

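The cells described here are the 492 cells that the authors' deposited cell table places in cluster HSC-1 and whose first reference label is the fetal-liver stem and progenitor cell. There were 351 of them among 5049 bone marrow HSC-1 cells (6.95%, exact Clopper-Pearson 95% interval 6.27 to 7.69%). There were 141 among 1539 spleen HSC-1 cells (9.16%, 7.77 to 10.7%). The whole series holds 16634 cells. They were set beside the HSC-1 cells of the same tissue labelled as multipotent progenitors high in Ctla2a, 4330 in bone marrow and 831 in spleen. As a further group, the HSC-1 cells labelled as megakaryocyte progenitors (344 and 91 cells) are given where they help.

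The study sequenced single Lin low/- Sca1+ c-Kit high (LSK) cells, the sorted fraction that holds blood stem cells and their earliest progeny, from the bone marrow and the spleen of C57BL/6 mice. All mice carried an orthotopic liver tumour, made by injecting 750000 Hepa1-6 cells, a mouse hepatoma line, into the left liver lobe at 6 to 8 weeks of age. Both groups are therefore tumour-bearing, and no tumour-free sample was used here. Each tissue is 1 library, and the labels do not say how many mice went into it or which magnetic enrichment, lineage depletion or c-Kit beads, went with which tissue.

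Blood stem cells divide seldom in the adult marrow, where most rest outside the cell cycle, whereas the stem and progenitor cells of the fetal liver divide often. A reference atlas assigns a label by likeness of the whole transcript profile, so a fetal-liver label given to an adult cell can rest on any group of genes that the atlas cells share. Fetal stem cells are also known for genes such as Lin28b, Igf2bp1 and Hmga2, which keep them in a fetal program and decline after birth.

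The labels were assigned by the authors from the same transcript profiles, and each tissue is 1 library. Every difference below is for that reason a description of these libraries, with no test. Unique molecular identifiers (UMIs, which count captured transcripts) were summed over the cells of a group and given as counts per 1000000 (CPM). Intervals are exact 95% Poisson or binomial intervals and cover counting error only, not the spread between mice. CPM values compare 1 gene between groups, not genes with each other.

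Depth was not equal between the groups. The fetal-liver-labelled cells gave 2181639 UMIs in the bone marrow, a median of 5306 per cell against 4780.5 in Ctla2a-high-labelled cells, and 1161363 UMIs in the spleen, 7689 per cell against 6890. Cells with over 2 times the median of the Ctla2a-high-labelled cells made up 11.1% of them in the bone marrow against 4.60%, and 4.26% against 1.56% in the spleen. No doublet caller was run, and the part of doublets in the results was not tested. The share of mitochondrial UMIs had a median of 3.26% in bone marrow and 3.33% in spleen cells. The libraries share 16 cell barcodes, none of them in the cells described here.

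The leading difference in the bone marrow was RNA of dividing cells. Mki67, the Ki-67 antigen made only in cycling cells (chromosome 7, 135689784 to 135716361), stood at 563 CPM (532 to 596) in fetal-liver-labelled cells. It stood at 90.6 in Ctla2a-high-labelled cells, a ratio of 6.22 (5.79 to 6.68), and at 108 in megakaryocyte-labelled cells. In the spleen the Mki67 levels were 217 CPM (191 to 245), 49.7 and 101. The fetal-liver-labelled cells were the highest of the 3 groups in both tissues, and their interval overlapped neither of the others.

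A gene was measured where the mean of the groups compared reached 20 CPM. A gene can pass this filter through its level in a single group, so counts of list members below describe the lists and are no further evidence. In the bone marrow 109 of 6687 measured genes were 2-fold or more higher in fetal-liver-labelled cells (1.63%), and 10 were lower by as much (0.15%). Folds are on the log2(CPM + 1) scale. Of the 109, 40 belong to the lists of replication, histone or mitosis genes used here. The other 69 hold many further histone and division genes outside those lists, such as Hist1h3e, Aspm, Kif15 and Cenpk. The lists thus understate the share of such genes. In the spleen 30 of 6580 genes were higher by this measure (0.456%) and 20 lower (0.304%). Both tissues shared 24 of the higher genes, 22.0% of the bone marrow's and 80% of the spleen's. They shared 5 of the lower genes (Ccl3, Ccl4, Myl10, Ncf1 and Wfdc17), 50% of the bone marrow's and 25% of the spleen's. None of 6285 genes measured in both tissues was past 2-fold in opposite directions.

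**Figure D1:**
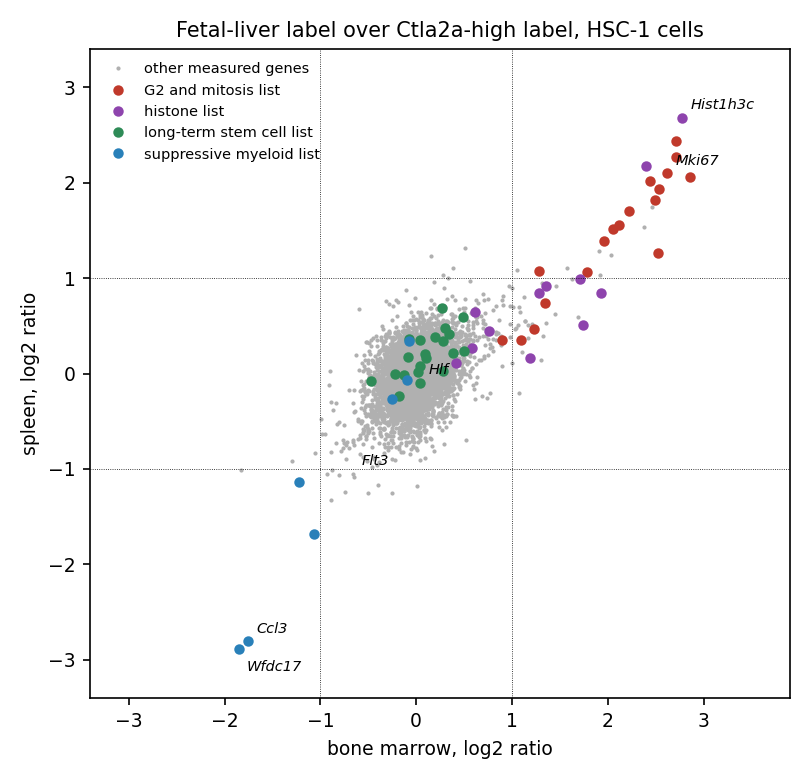
Log2 ratio of each measured gene, fetal-liver-labelled over Ctla2a-high-labelled HSC-1 cells, in the bone marrow (x axis) and the spleen (y axis), with dotted lines at 2-fold. Mitosis and histone genes (red and purple) extend to the upper right, led by Hist1h3c and Mki67, Wfdc17 and Ccl3 lie at the lower left, and Hlf lies near 0 in both.

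Among genes that reached 50 CPM in either group, the 10 with the highest ratios in the bone marrow were Ccnb1 (cyclin B1, which drives entry into mitosis), Neil3 (a DNA glycosylase of replicating cells), Hmmr (a spindle protein), Ube2c (which marks cyclins for destruction), Aspm (a spindle pole protein), Hist1h3c (a histone H3 gene), Nusap1 and Prc1 (which bundle spindle microtubules), Ccna2 (cyclin A2) and Mki67. Many promoters of such genes are known to carry a CHR element together with CCAAT boxes, bound by the DREAM complex in resting cells and by B-Myb and NF-Y in dividing ones. The 120 bases before the start of 3 of the 4 highest genes are shown, since these genes were higher together. Capitals mark CCAAT boxes (CCAAT or ATTGG) and the CHR element (TTTGAA or TTCAAA). The sequences are from RefSeq on GRCm38.p6 and read 5′ to 3′ on the gene's strand: Ccnb1 at chr13:100786487-100786606 (minus strand), Hmmr at chr11:40733438-40733557 (minus) and Ube2c at chr2:164769809-164769928 (plus).
Ccnb1: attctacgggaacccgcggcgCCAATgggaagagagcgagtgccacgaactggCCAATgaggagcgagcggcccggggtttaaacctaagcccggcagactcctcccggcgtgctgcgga
Hmmr: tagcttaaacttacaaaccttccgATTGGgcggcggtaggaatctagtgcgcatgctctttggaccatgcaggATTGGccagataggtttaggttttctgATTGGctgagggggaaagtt
Ube2c: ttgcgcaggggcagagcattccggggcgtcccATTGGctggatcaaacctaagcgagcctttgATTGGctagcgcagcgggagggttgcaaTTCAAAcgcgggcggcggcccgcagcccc

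The Ccnb1 stretch holds CCAAT boxes that begin 99 and 67 bases before the start, that of Hmmr 3 of them at 96, 47 and 20 bases, and that of Ube2c 2 at 88 and 57 bases with a CHR element at 29 bases. The same stretch of Neil3 holds neither motif. Over windows of 300 bases (250 before to 50 after a start) and both strands, 26 of the 30 mitosis genes matched a RefSeq entry. Of their 27 windows, 20 held a CHR element (74.1%), 23 a CCAAT box (85.2%) and 19 both (70.4%). Of the 109 higher genes in the bone marrow 72 matched, with 80 windows, of which 37 held both (46.25%). Among 6925 windows of the measured genes 4.88% held both, and among all 32851 windows 6.95%. For the list of G1/S and replication genes 3 of 30 windows held both. The motifs do not overlap in letters, a match is not evidence of binding, and the absence of these letters from a window says nothing of a factor.

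Over all 30 genes of the G2 and mitosis list, summed levels were 5270 CPM (5174 to 5367) in fetal-liver-labelled bone marrow cells, 1457 in Ctla2a-high-labelled cells and 1550 in megakaryocyte-labelled cells. In the spleen they were 2472 CPM (2382 to 2564), 1138 and 1321. Without a filter on low values the median log2 ratio of the list was 2.41 in bone marrow and 1.47 in spleen. With it, 28 of 30 members were measured in the bone marrow and 28 were at least 1.5-fold higher, where 2.98% of all genes were. In the spleen 18 were measured and 15 were at least 1.5-fold higher, where 2.16% of all genes were. Some members pass the filter only through their high level in the fetal-liver-labelled cells, so these counts describe the list and are no further evidence.

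Among regulators of mitotic entry and exit, Ccnb1 stood at 64.6 against 7.39 CPM in the bone marrow (8.75-fold, 6.94 to 11.0) and at 24.1 against 4.21 in the spleen, a mean under 20 CPM. Ube2c stood at 162 CPM against 21.4 (7.56-fold, 6.57 to 8.69), and in the spleen at 59.4 against 13.5 (4.41-fold, 3.15 to 6.16). Both genes were lower in the spleen than in the bone marrow under either label. Cdk1, the kinase that cyclin B1 activates, stood at 80.2 against 14.6 CPM in the bone marrow (5.48-fold) and at 23.2 against 9.77 in the spleen.

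Among spindle and chromosome genes, Hmmr was at 95.8 against 12.3 CPM in the bone marrow (7.79-fold, 6.48 to 9.35), and Prc1 was at 155 against 22.9 CPM (6.79-fold, 5.91 to 7.81). In the spleen Prc1 was at 55.1 against 10.6 CPM (5.19-fold, 3.61 to 7.47) and Nusap1 at 34.4 against 5.56 (6.19-fold). Top2a, the topoisomerase that untangles sister chromosomes, was at 402 against 73.1 CPM in the bone marrow (5.50-fold) and at 146 against 35.1 in the spleen (4.15-fold). The smallest ratios of the list were those of Smc4, a condensin subunit (240 against 128 CPM, 1.87-fold), and Kif23 (123 against 57.0 CPM, 2.16-fold).

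Histone genes made mainly during DNA replication were also higher. Their mRNAs mostly lack poly(A) tails, so a poly(A)-primed library captures a part of them, and gene copies are nearly identical, so the level of a single member is uncertain. The 16 histone genes summed to 2908 CPM against 1118 in bone marrow and 1174 against 708 in spleen. Hist1h3c stood at 322 against 46.1 CPM in the bone marrow (6.99-fold, 6.34 to 7.70) and at 67.2 against 9.61 in the spleen (6.99-fold, 4.91 to 10.0). The linker histone Hist1h1b stood at 409 against 76.5 CPM (5.35-fold) and at 153 against 33.2 (4.62-fold). Of 14 measured members 13 were at least 1.5-fold higher in the bone marrow (median log2 ratio 1.41), and 7 of 12 in the spleen (0.75), beside 2.98% and 2.16% of all genes. Members such as Hist1h3c in the spleen pass the filter only through their level in the fetal-liver-labelled cells, so these counts too are no further evidence.

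Genes of replication itself differed less. Of the G1/S list 9 of 21 measured members were at least 1.5-fold higher in the bone marrow (median log2 ratio 0.51), where 2.98% of all genes were, and 5 of 19 in the spleen (0.50), where 2.16% were. None was lower in either. Here too some members, such as Clspn in the spleen, pass the filter only through the fetal-liver-labelled cells, and the counts are no further evidence. Clspn, a checkpoint protein of the replication fork, was at 57.3 against 27.1 CPM in the bone marrow (2.11-fold) and at 33.6 against 15.3 in the spleen (2.19-fold). Mcm5, a subunit of the replicative helicase, was at 39.9 against 24.5 CPM (1.63-fold, 1.28 to 2.04) in bone marrow cells, and in spleen cells at 23.2 against 20.9, a ratio of 1.11 (0.705 to 1.70). Pcna, the sliding clamp, was at 62.3 against 50.8 CPM and at 49.1 against 39.4. Chaf1b stood at 58.7 against 60.4 CPM in the bone marrow.

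The mitosis RNA was not spread over the cells. With each cell thinned to 3700 UMIs, 306 of the 351 bone marrow cells and 138 of the 141 spleen cells remained. The median number of UMIs from the mitosis list was then 4 in fetal-liver-labelled bone marrow cells (quartiles 2 to 25.75, highest 83), against 3 in Ctla2a-high-labelled cells (2 to 5). In the spleen the medians were 3 and 3, with quartiles of 2 to 5 and 2 to 4. The medians were thus 1 UMI apart in the bone marrow and equal in the spleen, while the upper quartiles were 25.75 and 5 in the bone marrow. At 5 or more UMIs the bone marrow shares were 46.1% and 31.6%, and the spleen shares 31.9% and 22.2%.

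**Figure D2:**
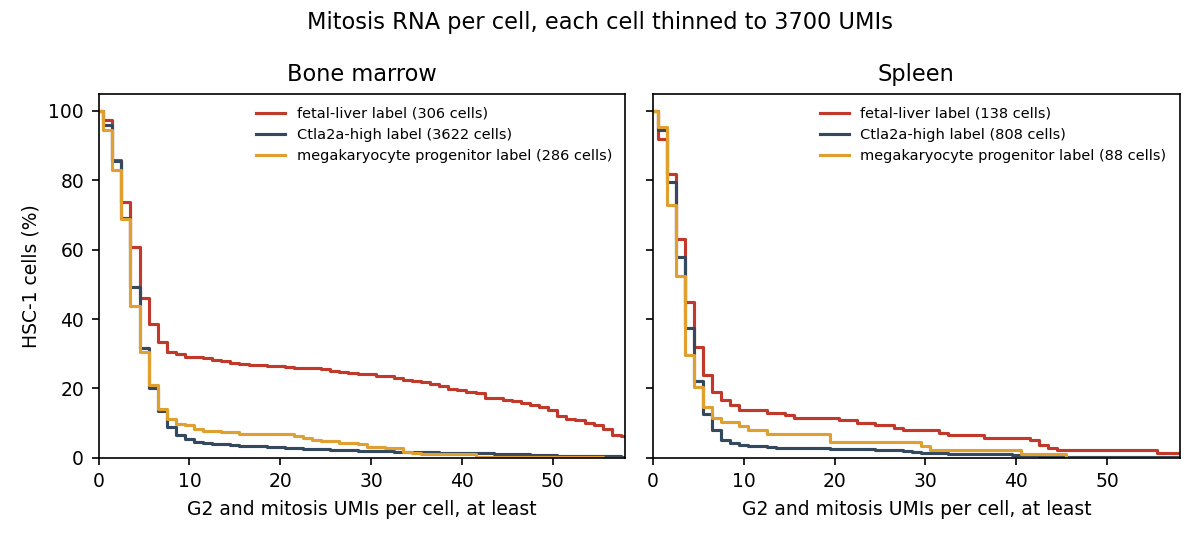
Share of HSC-1 cells (y axis, %) with at least the number of mitosis-list UMIs on the x axis, each cell thinned to 3700 UMIs, by first label and tissue. In the bone marrow the fetal-liver-labelled curve (red) stands at 29.1% at 10 UMIs, where the Ctla2a-high-labelled curve stands at 5.30%. In the spleen the shares at 10 UMIs are 13.8% and 3.71%.

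Cells with at least 10 UMIs of the mitosis list or of the histone list at this depth are called dividing below; this is a range of a count and not a cell type. Of the fetal-liver-labelled bone marrow cells 97 of 306 were in it (31.7%, 26.5 to 37.2%), against 8.50% of Ctla2a-high-labelled cells (7.62 to 9.46%) and 16.8% of megakaryocyte-labelled cells. In the spleen 22 of 138 were (15.9%, 10.3 to 23.1%), against 4.33% (3.04 to 5.97%) and 10.2%. Cells near the limit, with 7 to 12 UMIs of the higher list, numbered 47 of 306 and 13 of 138. With the limit at 20 UMIs the bone marrow shares were 26.5% and 3.09%. Mki67 had a UMI in 35.6% of fetal-liver-labelled and 13.7% of Ctla2a-high-labelled bone marrow cells at this depth, and in 38.5% and 16.7% of all cells unthinned.

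Cell cycle phases were also scored from the same G1/S and mitosis lists, so the calls are no further evidence. They are relative scores that rest on few UMIs, with a median of 4 or fewer per cell from each list at equal depth. The shares called S or G2/M are therefore not shares of dividing cells as defined above. At equal depth 67.0% of fetal-liver-labelled bone marrow cells were called S or G2/M, against 53.9% of Ctla2a-high-labelled cells, and 60.1% against 40.5% in the spleen. The G2/M call alone took 30.4% against 11.6% in the bone marrow and 17.4% against 6.93% in the spleen. The S call alone had the opposite order in the bone marrow, at 36.6% (31.2 to 42.3%) against 42.3% (40.7 to 43.9%), and stood at 42.8% against 33.5% in the spleen. Unthinned, the bone marrow S shares were 38.7% and 43.9%.

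Dividing and other cells both carried stem cell RNA. Hlf, a transcription factor of long-term stem cells, stood at 627 CPM in the dividing and 691 in the other fetal-liver-labelled bone marrow cells, and Mecom (Evi1), which keeps stem cells quiescent, at 134 and 179. Mki67 stood at 1341 and 32.4 CPM. Cdkn1c, which encodes the cell cycle inhibitor p57, stood at 13.7 CPM in the dividing cells and 58.9 in the others. Mpo, the myeloperoxidase of granulocyte progenitors, stood at 137 and 51.2 CPM. The dividing cells were deeper, with a median of 8636 UMIs against 5153. In the spleen Hlf stood at 415 and 447 CPM and Cdkn1c at 12.2 and 24.3.

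A further label column of the authors gave a reference state called HSC-2 or HSC-3 to 40 of the 351 bone marrow cells (11.4%, 8.27 to 15.2%), against 25 of 4330 Ctla2a-high-labelled cells (0.577%). In the spleen it did so to 5 of 141 (3.55%) against 4 of 831 (0.481%). Of the bone marrow cells with enough depth, 39 of the 97 dividing ones carried such a label and 0 of the 209 others. Of the Ctla2a-high-labelled cells 24 of 308 dividing ones and 0 of 3314 others did.

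The fetal-liver label was not particular to HSC-1. It was given to 1455 bone marrow and 604 spleen cells, of which 24.1% and 23.3% were in HSC-1. Its share was 47.9% in bone marrow HSC-3, 41.5% in DCP and 14.6% in HSC-2, against 1.30% in LP and 0 of 118 cells in MP (exact upper limit 3.08%). In the spleen it was 32.3% in HSC-3, 27.4% in HSC-2 and 9.60% in DCP. The table does not define these cluster names.

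Mitosis RNA under the same labels was also summed in other clusters. In bone marrow HSC-2 the mitosis list summed to 4189 CPM under the fetal-liver label and 2356 under the Ctla2a-high label, in HSC-3 to 9533 and 8818, and in DCP to 16385 and 15965. In spleen HSC-2 it summed to 3462 CPM under the fetal-liver label and 1833 under the Ctla2a-high label. In spleen HSC-3 it summed to 8976 CPM (8852 to 9101) under the fetal-liver label and 10226 (9986 to 10470) under the Ctla2a-high label. There the order was the opposite of that in HSC-1. The difference between clusters was not tested.

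**Figure D3:**
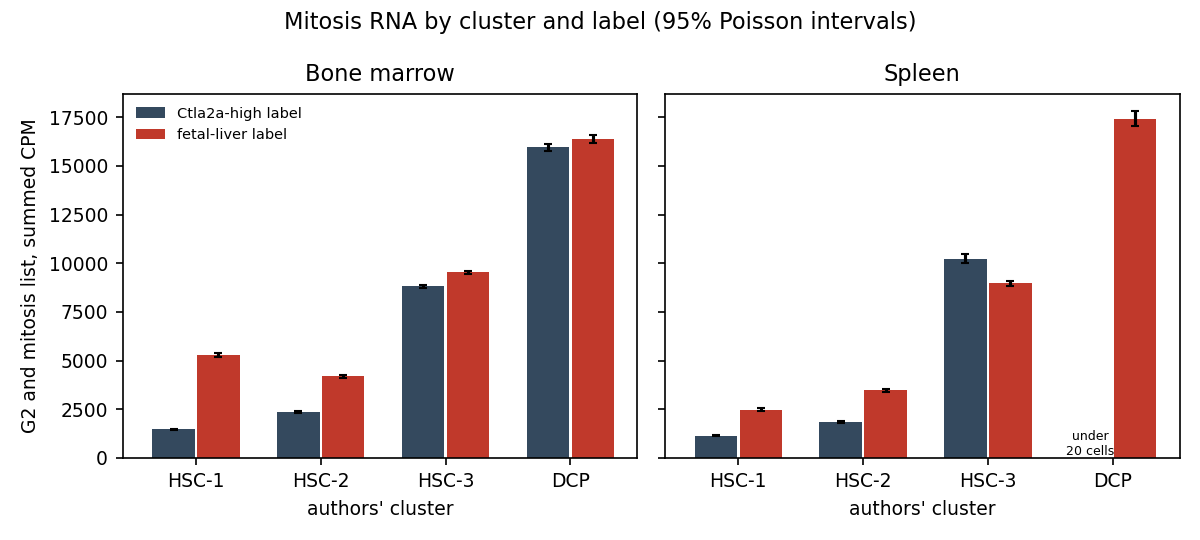
Summed CPM of the 30 mitosis genes (y axis) in cells of each label (Ctla2a-high dark, fetal-liver red) by the authors' cluster (x axis), with exact 95% Poisson intervals. The bars of HSC-1 are 5270 against 1457 CPM in bone marrow and 2472 against 1138 in spleen, and in spleen HSC-3 the dark bar is the higher one; the spleen DCP bar under the Ctla2a-high label is left out, since it had under 20 cells.

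Genes that mark stem cells were present at like levels under both labels. Summed over 30 long-term stem cell genes, levels were 4997 against 4976 CPM in bone marrow and 4267 against 4098 in spleen. Hlf stood at 690 CPM (655 to 726) against 670 in the bone marrow, a ratio of 1.03 (0.976 to 1.09), and at 440 against 470 in the spleen (0.936, 0.850 to 1.03). Mecom stood at 162 against 157 CPM (1.03, 0.922 to 1.15) and at 113 against 107 (1.06, 0.869 to 1.28). Procr, the endothelial protein C receptor used to sort stem cells, stood at 47.2 against 55.2 CPM and at 63.7 against 63.7. Each of these intervals includes a ratio of 1, and that of Hlf is the narrowest.

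Of the 23 measured members of that list 1 was at least 1.5-fold higher in the bone marrow and none lower, where 2.98% and 0.927% of all genes were, with a median log2 ratio of 0.10. That member was Cdkn1c, at 42.2 CPM (34.0 to 51.7) against 19.9 (2.12-fold, 1.68 to 2.66). In the spleen, where 2.16% of all genes were higher, 2 of 21 were, Gfi1b (49.1 against 30.2 CPM, 1.63-fold) and Gata2, both transcription factors also used by megakaryocyte and red cell progenitors. Gata2 stood at 231 against 152 CPM there (1.52-fold, 1.32 to 1.74) and at 237 against 168 in the bone marrow (1.41-fold, 1.28 to 1.54). Mllt3, a regulator of stem cell maintenance, stood at 116 against 95.6 CPM (1.21-fold, 1.06 to 1.38) and at 102 against 79.7 (1.27-fold).

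The gene that the compared label names, and most of the other progenitor and sort-gate genes given here, were lower or level. Ctla2a, which encodes a cysteine protease inhibitor, stood at 1800 CPM against 2228 in the bone marrow, and at 1268 against 1321 in the spleen. Flt3, the cytokine receptor of multipotent and lymphoid-primed progenitors, stood at 209 against 330 CPM in the bone marrow (1.58-fold lower, 1.44 to 1.74) and at 87.0 against 181 in the spleen (2.08-fold lower, 1.70 to 2.58). Cd34 stood at 356 against 409 CPM and at 363 against 380. Cd48, a surface protein absent from the most primitive stem cells, stood at 60.1 against 51.7 CPM and at 116 against 127. Kit (277 against 320 CPM in the bone marrow) and Ly6a, which encodes Sca1 (91.2 against 110), the genes of the sort gate, were present in both groups.

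**Figure D4:**
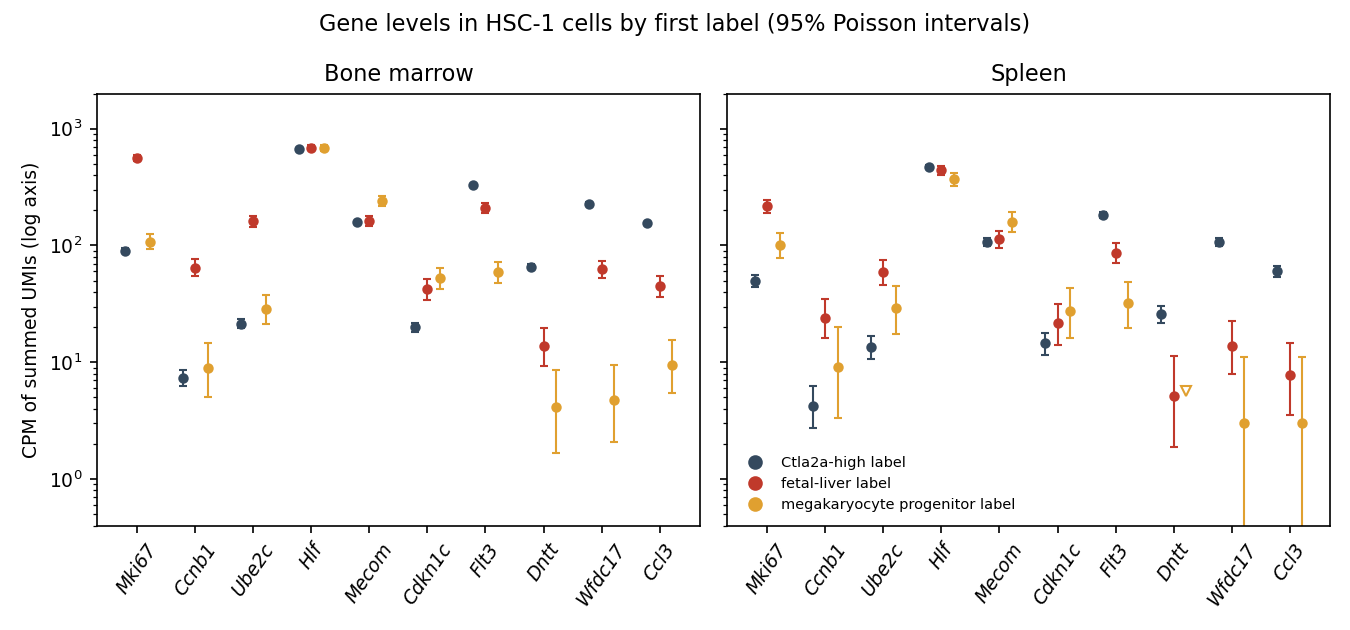
Levels of 10 genes in CPM (y axis, log scale) in HSC-1 cells labelled Ctla2a-high (dark), fetal-liver (red) and megakaryocyte progenitor (yellow), with exact 95% Poisson intervals; an open triangle marks the upper limit of a gene with 0 UMIs. Mki67, Ccnb1 and Ube2c are highest under the fetal-liver label, and Hlf is level between the fetal-liver and Ctla2a-high labels. Under the fetal-liver label Flt3, Dntt, Wfdc17 and Ccl3 lie between the levels of the other labels.

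Genes of a fetal program were few among those detected. Of 22 fetal stem cell genes 4 were measured in bone marrow and 2 in spleen. Hmga2, a chromatin protein of fetal stem cells, stood at 88.0 against 81.5 CPM in the bone marrow (1.08, 0.925 to 1.25) and at 62.9 against 62.0 in the spleen (1.01, 0.777 to 1.31). Arid3a stood at 28.9 against 30.5 CPM and at 19.8 against 21.1, and the imprinted RNA Meg3 at 25.7 against 23.9 CPM in the bone marrow. The fourth was Cdkn1c, which is also on the stem cell list.

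Lin28b had 1 UMI in the fetal-liver-labelled cells of each tissue, against 13 and 7 in the more numerous Ctla2a-high-labelled cells. Igf2bp1 and the embryonic globins Hbb-bh1 and Hbb-y had 0 UMIs in every group. Taken as up to 3 counts of the total, this allows 1.38 CPM in bone marrow and 2.58 in spleen cells described. Igf2bp2 stood at 9.63 against 5.53 CPM in the bone marrow. Summed over the list, levels were 214 CPM (195 to 234) against 177 in bone marrow cells and 128 (109 to 151) against 119 in spleen cells. The largest low-count ratio was that of the imprinted gene Dlk1, with 9 UMIs against 28 in the bone marrow (4.13 against 1.24 CPM, 3.33-fold, 1.38 to 7.26); it was singled out after its values were seen.

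The liver gene Alb had 0 UMIs in every group, and Afp, the fetal liver protein that Hepa1-6 cells make, had 4 UMIs in bone marrow and 8 in spleen cells described. The hepatocyte list summed to 58.7 against 71.3 CPM in the bone marrow. The list sum was thus not above that of the Ctla2a-high-labelled cells in the bone marrow, where 2 of its 14 genes were measured. In the spleen the 1 measured gene, Trf, had a log2 ratio of −0.88. For Afp no comparison between the labels is given. In single cells with few UMIs, a level near 0 does not show that a gene is off.

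Inflammatory myeloid genes were lower in both tissues. Wfdc17, a secreted protein of activated and suppressive myeloid cells (chromosome 11, 83703991 to 83706268), stood at 62.3 CPM against 228 in the bone marrow (3.65-fold lower, 3.08 to 4.36) and at 13.8 against 108 in the spleen (7.84-fold lower, 4.79 to 13.8). The chemokine Ccl3 stood at 44.9 against 154 CPM (3.44-fold lower, 2.81 to 4.25) and at 7.75 against 60.3 (7.78-fold lower, 4.06 to 17.2). Its neighbour Ccl4 stood at 86.6 against 182 CPM (2.10-fold lower) and at 25.0 against 82.4 (3.30-fold lower). Ccl9, another chemokine, was 1.86-fold lower in the bone marrow (55.5 against 103 CPM) and 2.04-fold lower in the spleen. Megakaryocyte-labelled cells were lower still for all 4, with Wfdc17 at 4.77 and 3.05 CPM.

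Of the 16 suppressive myeloid genes 7 were measured in each tissue, 4 were at least 1.5-fold lower in each and none was higher, where 0.927% and 2.63% of all genes were lower. The median log2 ratio was −1.06 in bone marrow and −1.13 in spleen cells, beside 0.00 and 0.01 over all genes. Stat3 (182 against 193 CPM in the bone marrow) and Hif1a (34.4 against 36.2) were level. Macrophage marker sums were 75.2 against 87.0 CPM and 35.3 against 46.0. Their part in the result was not tested.

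Few cells held these transcripts. At 3700 UMIs, Wfdc17 had a UMI in 14.1% of fetal-liver-labelled bone marrow cells (10.4 to 18.5%), 34.0% of Ctla2a-high-labelled, 1.40% of megakaryocyte-labelled and 4.35% of MEP cells, which carry the red cell program and have a median of 11230 UMIs unthinned. In the spleen it had a UMI in 4.35% (1.61 to 9.22%), 17.1%, 1.14% and 0.561%. The spleen interval of the fetal-liver-labelled cells thus holds neither the Ctla2a-high-labelled nor the MEP share. It does hold the 4.56% of spleen LP cells, a cluster whose share was 67.0% in the bone marrow.

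Genes of lymphoid and granulocyte priming were lower in part. Dntt, the DNA polymerase of early lymphoid progenitors, stood at 13.8 against 65.7 CPM in the bone marrow (4.78-fold lower, 3.33 to 7.11) and at 5.17 against 25.8 in the spleen. Of 11 measured lymphoid genes 4 were at least 1.5-fold lower in each tissue (medians −0.41 and −0.33), where 0.927% and 2.63% of all genes were, and none was higher. Of granulocyte-monocyte genes 3 of 11 and 2 of 9 were lower, against the same shares of all genes, again with none higher. Mpo stood at 85.7 against 109 CPM and at 22.4 against 40.6, and Cebpa, a master regulator of granulocytes, at 23.8 against 25.2 CPM in the bone marrow. Pf4, a platelet chemokine, stood at 16.0 against 14.7 CPM, with 78.7 in megakaryocyte-labelled cells.

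Without the dividing cells the mitosis and histone differences were gone by construction. Among 209 fetal-liver-labelled and 3314 Ctla2a-high-labelled bone marrow cells, 9 of 6591 genes were at least 2-fold higher (0.137%) and 15 lower (0.228%). Of the 10 lower genes over all cells 8 were among these 15. Ccl3 then stood at 37.5 against 164 CPM (4.36-fold lower, 3.24 to 6.01), Wfdc17 at 59.7 against 238 and Flt3 at 177 against 330. The suppressive myeloid list kept 4 of 7 members at least 1.5-fold lower (median −1.04), where 1.84% of all genes were. In the spleen, with 116 and 773 cells, 17 of 6519 genes were higher (0.261%) and 27 lower (0.414%), which held 16 of the 20 lower genes over all cells, and Wfdc17 stood at 15.5 against 110 CPM. The lower levels of Wfdc17, Ccl3 and Flt3 were also present in the cells not called dividing. Those cells still held some mitosis RNA, with bone marrow Mki67 at 32.4 CPM under the fetal-liver label and 30.3 under the Ctla2a-high label.

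In these other cells the cell cycle inhibitor Cdkn1c led the higher genes of the bone marrow. It stood at 58.9 CPM against 18.6 (3.17-fold, 2.41 to 4.11) and at 51.3 in megakaryocyte-labelled cells. At 3700 UMIs, 14.4% of all fetal-liver-labelled cells held a UMI of it (10.6 to 18.8%), against 6.29% of Ctla2a-high-labelled, 16.4% of megakaryocyte-labelled and 1.24% of MEP cells. In the spleen Cdkn1c stood at 24.3, 14.0 and 31.8 CPM in the cells that were not dividing. Long-term stem cell genes were at least 1.5-fold higher in 4 of 23 measured members there in the bone marrow (median 0.27, with 1.32% of all genes) and in 3 of 21 in the spleen (0.30, with 2.09%).

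For several genes the fetal-liver-labelled cells lay between the other labels. In the bone marrow cells that were not dividing, Mecom stood at 151 CPM under the Ctla2a-high label, 179 under the fetal-liver label and 248 under the megakaryocyte label. Mllt3 stood at 89.7, 125 and 201 CPM, Gata2 at 163, 241 and 369, and Esam, an adhesion protein of stem cells and megakaryocytes, at 36.6, 52.9 and 109. In the opposite order Flt3 stood at 330, 177 and 57.8 CPM, Cd34 at 416, 357 and 181, and Ccl4 at 187, 90.4 and 39.1. The platelet gene Pf4 stood at 15.0, 19.6 and 83.8 CPM. Cd48 did not have this order, at 53.6, 55.4 and 13.0. The spleen gave the same order for Gata2 (150, 244 and 296 CPM) and Flt3 (179, 82.8 and 28.2), and also for Mecom, Mllt3, Esam, Cd34 and Ccl4. Pf4 did not keep it there, at 8.98, 8.84 and 44.1 CPM. Cd48, unlike in the bone marrow, fell in the order of Flt3 in the spleen, at 128, 104 and 15.9 CPM. These genes were picked after their values were seen.

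Growth and stress genes were read against the shares of all genes at least 1.5-fold higher, 2.98% in bone marrow and 2.16% in spleen cells, or lower, 0.927% and 2.63%. Cytosolic ribosomal protein genes were all within 1.5-fold, with median log2 ratios of 0.00 and 0.02. Of ribosome biogenesis genes 0 of 21 were higher in bone marrow cells and 2 of 21 in spleen cells. Myc stood at 73.3 against 62.9 CPM and at 86.1 against 83.3, and its nucleolar target Npm1 at 1258 against 1061 (1.19-fold) and 1498 against 1271. Chromatin genes were higher in 4 of 16 measured members in the bone marrow, led by the histone variant H2afz, at 883 against 437 CPM (2.02-fold). Ran, a nuclear transport GTPase, was 1.40-fold and 1.42-fold higher. Of 14 measured interferon-stimulated genes none was at least 1.5-fold lower in the bone marrow (median −0.19) and 4 were in the spleen (median −0.25), with Rsad2 the lowest at a log2 ratio of −0.98. None was higher in either tissue.

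The series title names the stress sensor PERK, encoded by Eif2ak3. That gene stood at 6.42 against 9.69 CPM in bone marrow and 6.89 against 8.93 in spleen, under the level measured here. Its effector Atf4 stood at 202 against 208 CPM and at 95.6 against 131, Ddit3 (CHOP) at 44.5 against 44.4 and 27.6 against 33.0, and the chaperone Hspa5 at 279 against 309 and 260 against 265. Of 15 measured PERK, ATF4 and CHOP genes 2 were at least 1.5-fold higher in the bone marrow (2.98% of all genes), the serine and folate enzymes Psat1 (33.9 against 19.5 CPM) and Shmt2 (33.5 CPM, 1.68-fold). In the spleen, with 2.16% of all genes, 1 was, Shmt2 (35.3 against 22.4 CPM). Neither tissue had a member at least 1.5-fold lower.

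**Figure D5:**
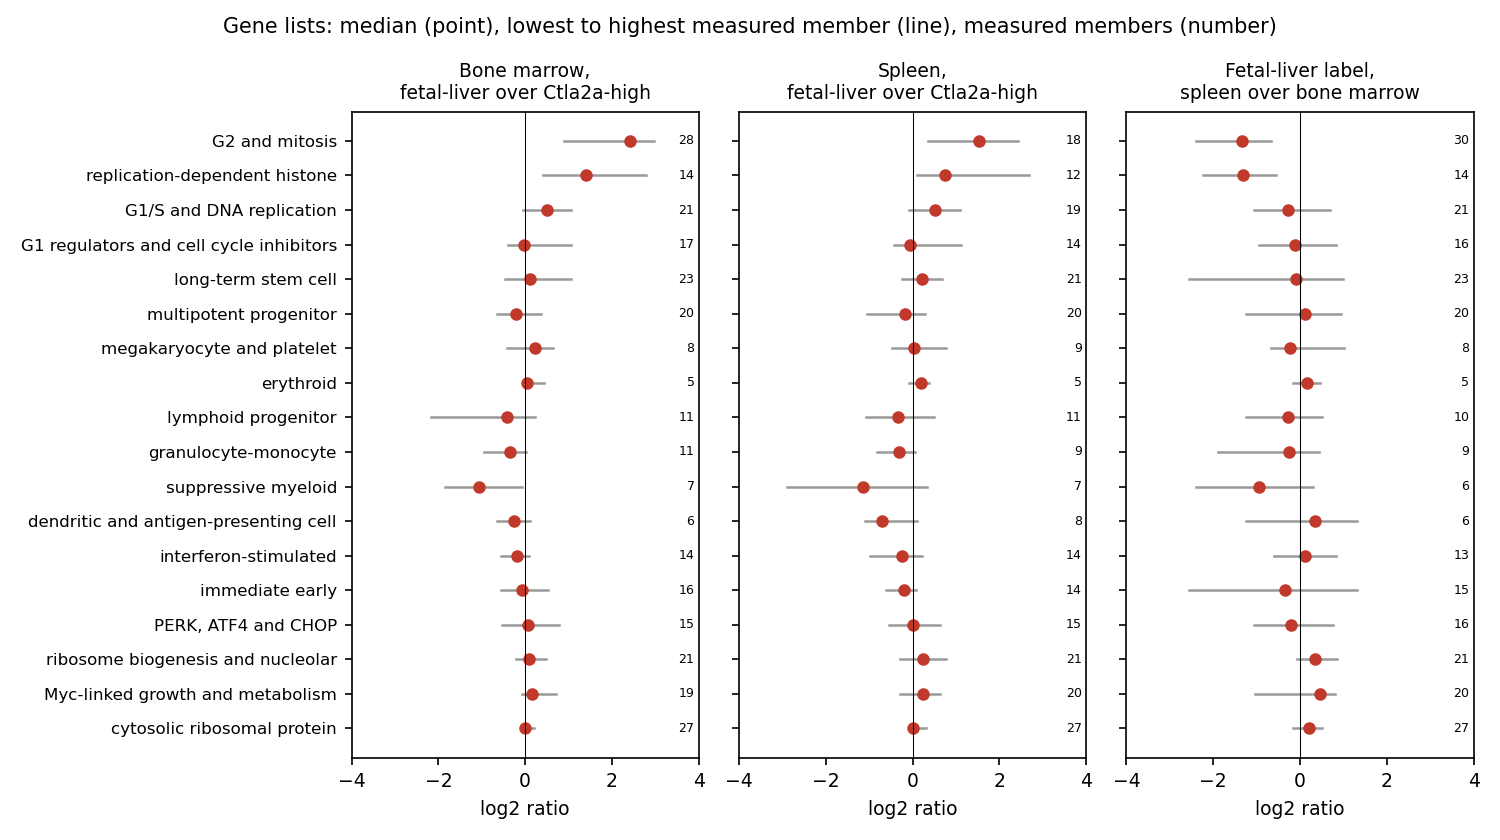
Median log2 ratio of each gene list (point), its lowest and highest measured member (line) and the number measured (right), for fetal-liver over Ctla2a-high label in the bone marrow and the spleen, and for spleen over bone marrow within the fetal-liver label. Mitosis medians are 2.41, 1.54 and −1.34, and those of suppressive myeloid genes −1.06, −1.13 and −0.95.

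Spleen and bone marrow cells under the fetal-liver label were then set side by side. Of 6668 measured genes 28 were higher in the spleen by 2-fold or more (0.42%) and 130 lower (1.95%). Of the 130, 35 belong to the lists of replication, histone or mitosis genes used here. The other 95 hold further histone and division genes outside those lists, such as Hist1h3e, Aspm, Kif15 and Spc24. All 30 mitosis genes were at least 1.5-fold lower in the spleen (median log2 ratio −1.34), and 13 of 14 measured histone genes (−1.31), where 6.46% of all genes were. Mki67 was 2.60-fold lower (2.27 to 2.98), Hist1h3c 4.80-fold (3.79 to 6.14) and Hmmr 3.97-fold (2.67 to 6.13). Ctla2a-high-labelled cells had the same direction for Mki67 (49.7 against 90.6 CPM). Tissue and library cannot be told apart here.

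Stem cell genes were mixed between the tissues. Hlf stood at 440 CPM in the spleen and 690 in the bone marrow (1.57-fold lower, 1.42 to 1.74), with 470 and 670 in Ctla2a-high-labelled cells. Egr1, an immediate early gene that holds stem cells in their niche, stood at 196 and 559 CPM (2.85-fold lower), and Nr4a1 at 6.89 and 45.8 (6.65-fold lower, 3.25 to 15.8). Pdzk1ip1 was higher in the spleen, at 118 against 70.6 CPM. Another immediate early gene, Fosb, was higher there, at 521 against 209 CPM (2.49-fold, 2.20 to 2.82). Dissociation and sorting are known to induce such genes, and the part of handling was not tested.

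Genes of homing and migration also differed. S1pr1, the receptor by which cells leave tissue toward sphingosine-1-phosphate in blood, stood at 14.6 CPM in the spleen and 50.9 in the bone marrow (3.48-fold lower, 2.08 to 6.18), where Ctla2a-high-labelled cells had 26.5 and 44.7. S100a4, a calcium-binding protein of motile cells, stood at 95.6 and 14.7 CPM (6.52-fold higher, 4.36 to 9.98), with 149 and 17.1 under the other label. Hes1, a Notch target, stood at 58.6 and 11.0 CPM (5.32-fold higher, 3.30 to 8.87), with 74.7 and 14.4. Selp, P-selectin, stood at 94.7 and 46.8 CPM (2.03-fold higher) and Cd48 at 116 and 60.1 (1.94-fold). Atf4 was 2.11-fold lower in the spleen (1.71 to 2.63).

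Without dividing cells 46 of 6575 genes were higher in the spleen (0.7%) and 82 lower (1.25%). S100a4 then stood at 114 against 15.4 CPM, Fosb at 602 against 178 and Egr1 at 236 against 733. The 20 measured Myc-linked growth genes had a median log2 ratio of 0.36 in these cells, beside 0.003 over all genes. Over all cells 5 of 20 were at least 1.5-fold higher in the spleen and 1 lower (median 0.45), where 4.2% of all genes were higher and 6.46% lower. The higher ones included Mycn (85.2 against 48.1 CPM) and Eno1, an enolase (62.0 against 36.2).

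RNA of other cell types was present in the spleen cells. Mcpt4, a mast cell protease, stood at 108 CPM in fetal-liver-labelled spleen cells, 32.4 in Ctla2a-high-labelled cells and 77.8 in megakaryocyte-labelled cells, and had 0 UMIs in the bone marrow cells described. Of its 126 UMIs 53 were in 1 cell. Its log2 ratio to Ctla2a-high-labelled cells was 1.71 with that cell and 0.94 without it. At 3700 UMIs 11.6% of the cells held a UMI of it (6.77 to 18.1%), against 9.03% of Ctla2a-high-labelled cells and 9.26% of LP cells, which should lack it. Cma1, another mast cell protease, had a UMI in 8.70% of cells, with 9.12% of LP cells. In spleen cells that were not dividing, Mcpt4 stood at 134 against 28.7 CPM and Cma1 at 65.2 against 25.1. Where this RNA came from was not tested.

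Genes of B cells and antigen-presenting cells were lower under the fetal-liver label in the spleen. Igkc stood at 22.4 against 51.7 CPM, Ighm at 30.1 against 64.2, H2-Aa at 28.4 against 60.0 and Cd74 at 53.4 against 115. The Cd74 level under the Ctla2a-high label rests in part on a single spleen cell with 137 UMIs of it. The log2 ratio of Cd74 was −1.09 over all cells and −0.77 without the top cell of each gene. At equal depth 17.4% of fetal-liver-labelled spleen cells held a Cd74 UMI (11.5 to 24.8%), against 23.4% of Ctla2a-high-labelled cells (20.5 to 26.5%). The summed antigen-presenting list stood at 826 against 1101 CPM and the B cell list at 71.5 against 120. Of 141 spleen cells 80 held under 3 UMIs of 16 genes of other cell types, as did 431 of 831 Ctla2a-high-labelled and 325 of 351 bone marrow cells. Among those spleen cells the log2 ratios were 1.63 for Mki67, −2.49 for Wfdc17, −0.83 for Flt3 and −0.39 for Cd74. Over all cells the log2 ratios were 2.10 for Mki67, −2.88 for Wfdc17 and −1.05 for Flt3, with the same signs. Cd74 is itself among the 16 genes, so its ratio in the kept cells depends on the selection. The limit of 3 UMIs was not scaled to depth, and the part of such RNA in the other ratios was not tested.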

How the data were processed

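Single LSK cells of 2 libraries, bone marrow and spleen, were profiled with a droplet 3′ assay. The authors deposited raw UMI counts per gene and cell, made with Cell Ranger 3.1.0 on mm10 at about 27000 reads per cell, per the series design text. The submitters' processing notes name Seurat 3.1.5 and mm9, with no role, and the labels and the design text name different kit versions. How cells were filtered and whether doublets were removed is not given in the sources used here. The authors' deposited cell table gives clusters, 2 reference labels and a score per cell for stemness, myeloid and erythroid fate, ER stress and pseudotime, whose genes and scale it does not state. The batch-integrated table was not used.

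UMIs were summed over the cells of each label, scaled to CPM and compared as log2(CPM + 1) ratios with Python 3.11.15, scipy 1.17.1 and scanpy 1.11.5. A gene was measured at a mean of at least 20 CPM; folds of 2 (genes) and 1.5 (list members) describe size. Shares of cells were taken after thinning each cell to 3700 UMIs. A zero count allows up to 3 counts of the total. Gene coordinates are GENCODE vM21 on GRCm38. The scripts were tested on simulated data.

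Genes were named by a rule: in each comparison the 10 highest and 10 lowest ratios of genes that reach 50 CPM in 1 group or more, without unnamed gene models; the 2 highest and 2 lowest members of each list with at least 4 measured; and fixed stem, cycle, fate and stress genes. The members and the 29 lists were chosen with earlier results of these data known. Ncf1, Igf2bp1, Hbb-bh1, Hbb-y and Dlk1 were named outside that rule, after their values were seen. The alternatives were 8 planned ones, on scaling by trimmed mean of M values, filters, pseudocount, weighting of cells, thinning, RNA of other cell types and denominators, and 2 added after seeing the data (without dividing cells, and without the top cell of each gene).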

Additional observations from a re-analysis of the deposited data

How the results depend on the processing

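No paired analysis was possible because each tissue has 1 library. Counts of genes past 2-fold moved with the settings as follows, for fetal-liver over Ctla2a-high label in the bone marrow, the same in the spleen, and spleen over bone marrow within the fetal-liver label. With a mean of at least 10 CPM they were 174 higher and 19 lower, 73 and 56, and 66 and 249; at 50 CPM, 46 and 3, 10 and 6, and 5 and 47; with no filter, 330 and 263, 423 and 661, and 502 and 931. Weighting cells alike gave 65 higher in the bone marrow. A pseudocount of 5 CPM gave 16 higher in the spleen over bone marrow. Thinned cells gave 56 higher and 73 lower under the labels in the spleen, and 85 higher between tissues. Cells without RNA of other cell types gave 46 lower in the spleen and 56 higher between tissues. Without dividing cells the counts were 9 higher in the bone marrow, 17 higher in the spleen, and 46 higher and 82 lower between tissues. Without the top cell of each gene, 19 were higher in the spleen and 18 between tissues. Over all cells of a library, the cells described made up 3.48% in the bone marrow library and 2.15% in the spleen library. Unthinned, 48.8% of Ctla2a-high-labelled bone marrow cells were called S or G2/M. The causes were not tested beyond the smaller or larger number of genes and cells each setting leaves. No value past the fold limits reversed in the settings in which it was compared. The mitosis medians were not compared without dividing cells, a setting that removes their difference by construction. There they were −0.017 in bone marrow and −0.008 in spleen under the labels. Medians near 0 could change sign in that setting, as for immediate early genes in the bone marrow (−0.062 over all cells and 0.023 without dividing cells). With 141 cells, the spleen counts rest on 1161363 UMIs, and genes near 20 CPM there rest on few of them.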

Other observations

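The authors' stemness score did not follow the stem cell genes. Its median was lowest in the HSC-1 cluster of the bone marrow (−0.0784) among the 8 clusters, where Hlf and Mecom are abundant, and highest in MEP (0.547), the cluster of red cell genes. In the spleen MEP again had the highest median (1.09), and MCP (−0.0300) the lowest, with HSC-1 at 0.0210. Within HSC-1 the fetal-liver-labelled cells had a higher median than Ctla2a-high-labelled cells, −0.0192 against −0.0833 in the bone marrow and 0.105 against −0.00041 in the spleen. The same order held in HSC-2 (0.345 against 0.269 and 0.595 against 0.342) and in HSC-3 (0.187 against 0.150 and 0.453 against 0.268). The genes behind the score are not stated.

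Other scores of the table are given as values. The myeloid score had a median of −0.0641 in fetal-liver-labelled bone marrow cells, 0.0178 in Ctla2a-high-labelled and −0.174 in megakaryocyte-labelled cells, and −0.0681, 0.0455 and −0.213 in the spleen. The erythroid score had a median of 0.0975 in fetal-liver-labelled and 0.0451 in Ctla2a-high-labelled bone marrow cells, and 0.108 and 0.102 in the spleen. Of 5 measured erythroid genes 0 were at least 1.5-fold higher in either tissue, where 2.98% and 2.16% of all genes were. In each tissue 4 of the 5 had a log2 ratio above 0. Without dividing cells 2 of 5 were at least 1.5-fold higher in the bone marrow (1.32% of all genes) and 0 of 5 in the spleen (2.09%). The ER stress score was nearly level, with 0.0710 against 0.0679 in the bone marrow and 0.0937 against 0.0897 in the spleen. A pseudotime was given for 76.9% of fetal-liver-labelled bone marrow cells against 89.7% of Ctla2a-high-labelled ones, and for 78.0% against 91.3% in the spleen. Where it was given, the median was 6.39 against 5.79 in the bone marrow and 7.0 against 5.81 in the spleen.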
